A study of Mus musculus with 38 samples.

Results

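Base-unpairing regions (BURs) are the DNA sites to which SATB1 binds when nothing but naked genomic DNA and the protein is present. The BURs of the mouse genome that carried a SATB1 peak in thymocytes were set here against those that carried none. BURs came from 1 reference list, made with recombinant SATB1 and purified thymocyte DNA in vitro. Occupancy came from 2 lists of SATB1 peaks obtained by urea ChIP-seq of thymocytes. A BUR was called occupied when a peak of both lists shared at least 1 bp with it, and free when neither list had such a peak. Of the 232068 BURs on chromosomes 1 to 19 and X (mm9), 33906 (14.6%) had a peak in replicate 1, 30005 (12.9%) in replicate 2, 26260 (11.3%) in both and 194417 (83.8%) in neither. The remaining 7646 BURs had a peak in replicate 1 only and 3745 in replicate 2 only, and they entered neither class.

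SATB1 is a nuclear protein that is abundant in immature T cells of the thymus and is known for organizing the chromatin of many genes at once. It contacts DNA largely along the minor groove and favours a sequence context, called ATC, in which stretches without G or without C on a strand lie in clusters. Such DNA unpairs readily under superhelical strain, from which BURs take their name. In urea ChIP-seq, crosslinked chromatin is purified by ultracentrifugation through concentrated urea before it is fragmented and precipitated, which removes proteins that are not crosslinked to DNA.

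Both thymocyte libraries came from wild-type C57BL/6 mice labelled P13, and both used the home-made SATB1 antibody 1583D, at 4 ul (replicate 1) and 2 ul (replicate 2). The study describes its replicates as cells from different animals. The labels give both libraries the same experiment number and say nothing of separate chromatin preparations, so the SD over them covers the spread between these libraries only. The BUR map has 1 list and no replicate. The peak lists hold positions and enrichments but no read counts, so values could not be set beside the sequencing depth of each library, and the identity of the cells could not be checked against marker genes. The thymocyte lists were of like size, with 44920 and 38765 peaks on the chromosomes used. Since BURs of 1 map are not replicates and 2 lists allow no test over samples, every difference below is a description without a test. Its error is the SD over the 2 lists, each list giving its own contrast of BURs with a peak against BURs without one. A difference printed with ± is the mean of these contrasts, which also take in the BURs with a peak in the other list only, so it need not equal the gap between the medians of occupied and free BURs. The number of the 20 chromosomes that went the same way is given as well, although all chromosomes share the same libraries.

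Sequences are shown first for the occupied BURs with the strongest signal in thymocytes and the free BURs with the strongest signal in vitro. The values that chose them are given as a description, and since the sets were chosen by different values, no comparison is drawn between them. In each, bases are lower case except every ATTA and TAAT (the same word read on the other strand), which stand in capitals. All are from the plus strand of NCBIM37, the assembly that mm9 names, and each is a window of 150 bases centred on the in vitro summit. The 3 occupied BURs with the highest thymocyte fold enrichment outside exons were chr17:72984971-72985503, between genes 32.2 kb from the start of Alk, a receptor tyrosine kinase gene; chr6:122647373-122647890, between genes 9.88 kb from the start of Nanog, which encodes a pluripotency homeobox factor; and chr1:32546418-32546917, in an intron of Khdrbs2, which encodes an RNA-binding protein. The windows shown are chr17:72985150-72985299, chr6:122647557-122647706 and chr1:32546584-32546733.
occupied BUR near Alk: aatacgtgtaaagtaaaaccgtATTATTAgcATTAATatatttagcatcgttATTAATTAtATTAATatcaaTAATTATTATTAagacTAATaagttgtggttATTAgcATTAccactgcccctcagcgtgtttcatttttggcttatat
occupied BUR near Nanog: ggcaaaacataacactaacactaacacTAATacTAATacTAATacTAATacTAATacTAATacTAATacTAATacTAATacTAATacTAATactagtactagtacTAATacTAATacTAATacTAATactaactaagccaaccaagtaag
occupied BUR in Khdrbs2: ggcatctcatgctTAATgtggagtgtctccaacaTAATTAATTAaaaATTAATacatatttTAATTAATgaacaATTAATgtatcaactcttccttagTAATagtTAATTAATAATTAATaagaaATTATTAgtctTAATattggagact
The capitals cover 51, 60 and 64 of the 150 bases. Thymocyte fold enrichment was 36.2 and 35.5 (replicates 1 and 2) at the BUR near Alk, 35.9 and 35.2 at the one near Nanog, and 34.6 and 34.8 at the one in Khdrbs2. All had peaks in both brain and both skin urea lists as well. The BUR near Nanog holds a tandem run of 70 bp with the unit AATACT.

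The 3 free BURs with the highest in vitro fold enrichment outside exons were chr7:82907985-82908523, between genes 85.0 kb from the start of Klhl25, whose product is an adaptor of a ubiquitin ligase; chr5:36080296-36080828, between genes 8.64 kb from the start of Sh3tc1; and chr9:56561153-56561688, between genes 28.4 kb from the start of Lingo1, which encodes a receptor component that limits axon growth. The windows are chr7:82908180-82908329, chr5:36080483-36080632 and chr9:56561338-56561487.
free BUR near Klhl25: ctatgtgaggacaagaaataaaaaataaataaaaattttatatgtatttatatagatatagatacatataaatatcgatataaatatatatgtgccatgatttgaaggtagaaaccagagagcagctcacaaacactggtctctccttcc
free BUR near Sh3tc1: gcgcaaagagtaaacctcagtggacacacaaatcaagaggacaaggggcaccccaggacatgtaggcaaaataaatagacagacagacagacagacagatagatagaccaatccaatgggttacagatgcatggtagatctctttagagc
free BUR near Lingo1: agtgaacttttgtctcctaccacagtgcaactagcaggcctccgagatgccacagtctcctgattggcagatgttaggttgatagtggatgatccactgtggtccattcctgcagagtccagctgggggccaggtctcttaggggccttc
None of the windows holds a single ATTA or TAAT. In vitro fold enrichment, the value that chose them, was 35.3, 34.3 and 33.8, and AT content was 54.0, 48.8 and 47.9%. They are not typical of free BURs, whose medians were 5.53 and 70.9%. Their deposited -log10 q-values were 4108, 1538 and 1264, against a 90th percentile of 83.7 in free BURs. What lies behind these extreme values was not tested. The nearest thymocyte peak of either list lay at least 39815 bp away. The BUR near Sh3tc1 had a peak in replicate 2 of the skin urea lists.

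Neighbouring BURs that were matched by rule show the same word at low in vitro strength. The pair of 1 occupied and 1 free BUR less than 5 kb apart that was closest in length, AT content and in vitro fold enrichment lay on chromosome 14, 1683 bp apart. The free member, chr14:113530383-113530698, and the occupied member, chr14:113532382-113532692, had lengths of 316 and 311 bp, AT contents of 75.9% each and in vitro fold enrichments of 3.62 and 3.79. The next pair lay on chromosome 2, 2816 bp apart. Its occupied member, chr2:78060276-78060662, and its free member, chr2:78063479-78063863, had lengths of 387 and 385 bp, AT contents of 69.0 and 68.6% and in vitro fold enrichments of 5.06 and 5.02. The windows are chr14:113530417-113530566, chr14:113532495-113532644, chr2:78060421-78060570 and chr2:78063604-78063753.
free BUR on chromosome 14: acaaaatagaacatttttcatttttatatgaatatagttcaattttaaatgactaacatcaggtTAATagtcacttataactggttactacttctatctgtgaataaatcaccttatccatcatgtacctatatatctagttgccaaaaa
occupied BUR on chromosome 14: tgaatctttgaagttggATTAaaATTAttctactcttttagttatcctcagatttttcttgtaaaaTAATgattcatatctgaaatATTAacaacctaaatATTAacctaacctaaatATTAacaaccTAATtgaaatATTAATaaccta
occupied BUR on chromosome 2: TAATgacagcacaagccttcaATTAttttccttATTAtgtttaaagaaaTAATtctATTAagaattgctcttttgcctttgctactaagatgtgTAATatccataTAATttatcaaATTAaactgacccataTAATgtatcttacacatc
free BUR on chromosome 2: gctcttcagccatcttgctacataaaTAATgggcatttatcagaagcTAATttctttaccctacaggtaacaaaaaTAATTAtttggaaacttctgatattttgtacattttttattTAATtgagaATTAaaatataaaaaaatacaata
In the 300 bp around the summit, ATTA or TAAT occurred 5 times in the free and 11 times in the occupied BUR on chromosome 14, and 14 times in the occupied and 7 times in the free BUR on chromosome 2. TATA occurred 6 times in the free and 25 times in the occupied BUR on chromosome 14, and 2 times in each on chromosome 2. Thymocyte fold enrichment was 11.9 and 13.6 (replicates 1 and 2) at the occupied BUR of chromosome 14 and 7.11 and 7.28 at that of chromosome 2. All lie between genes, at least 181 kb from the nearest protein-coding gene start.

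The last set shows BURs made of tandem repeats, picked after the values had been seen as the BUR with the longest run of each unit in the class that holds most of them. The windows of 100 bases are chr1:137038192-137038291, in an intron of Ptpn7, which encodes a tyrosine phosphatase of blood cells; chr6:147185298-147185397, 27.4 kb from the start of Pthlh, the gene of parathyroid hormone-like hormone; chr12:22894619-22894718; and chr4:85368759-85368858.
occupied BUR, unit AATT: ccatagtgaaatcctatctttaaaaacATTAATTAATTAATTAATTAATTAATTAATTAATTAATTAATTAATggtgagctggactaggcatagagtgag
free BUR, unit AGAT: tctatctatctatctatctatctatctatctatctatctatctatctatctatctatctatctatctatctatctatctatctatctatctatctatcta
free BUR, unit AAAT: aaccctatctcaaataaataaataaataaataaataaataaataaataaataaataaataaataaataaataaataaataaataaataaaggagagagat
free BUR, unit AAT: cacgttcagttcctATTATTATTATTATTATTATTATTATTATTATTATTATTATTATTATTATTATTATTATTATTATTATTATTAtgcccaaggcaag
The perfect runs in these BURs are 46, 139, 79 and 75 bp long. The AATT run carried a peak of 5.84-fold in replicate 1 and 14.5-fold in replicate 2, whereas the AGAT run had the higher in vitro fold enrichment, 15.7 against 7.34, and no peak.

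Occupied BURs were the stronger and longer ones in vitro. Median in vitro fold enrichment, the ratio of the pile-up at the BUR over the local background as the peak caller gives it, was 8.62 for occupied and 5.53 for free BURs. The difference was 2.77 ± 0.258 (SD, n = 2 lists), and it was positive on 20 of 20 chromosomes. Median length was 497 bp against 427 bp, a difference of 63.5 bp ± 3.54 (SD, n = 2 lists), again on 20 of 20 chromosomes. Length is tied to the overlap rule, since a longer BUR offers more bases to overlap, and to strength. When at least 50% of the BUR had to be covered by the peak, the difference in length was 45 bp, and among BURs of 350 to 550 bp it was 22 bp. Both settings act on length themselves, so they do not isolate the overlap rule. A peak of a given size covers a smaller part of a longer BUR, and the range caps the difference. Within the weakest quintile of in vitro fold enrichment, the occupied share was 5.57% in the longest quintile of length and 2.66 to 3.01% in the others. Across deciles of fold enrichment it climbed from 2.43% to 24.9%. Within the strongest quintile, which holds few short BURs, it was 24.9% in the third, 19.7% in the fourth and 25.6% in the longest quintile of length. Without BURs that hold a tandem run, the share in the corresponding quintiles was 26.1, 32.4 and 35.8%.

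**Figure D1:**
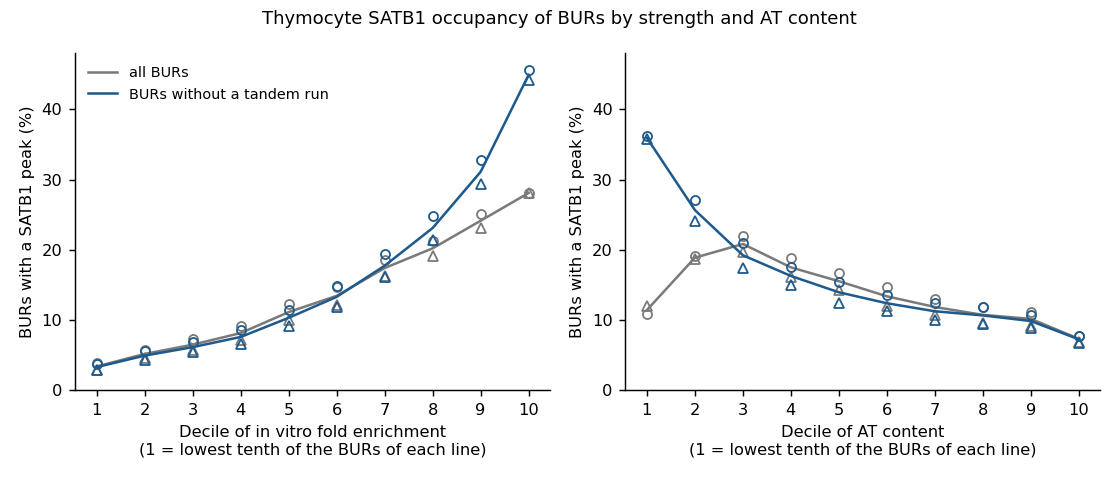
Share of BURs with a thymocyte SATB1 peak (%) by decile of in vitro fold enrichment (left) and of AT content (right), for all BURs (grey) and for BURs without a tandem run (blue); circles are replicate 1, triangles replicate 2 and lines their mean. In the top decile of fold enrichment, 28.1% of all BURs had a peak in each replicate, against 45.7 and 44.2% of BURs without a tandem run, and in the lowest decile of AT content the shares were 10.8 and 12.0% against 36.2 and 35.7%.

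Strength in vitro did not suffice for occupancy. Of the 10132 BURs with a fold enrichment of 15 or more, 25.9% were occupied and 68.3% free. These strong BURs split by whether they held a tandem run, here a perfect repeat of a unit of up to 6 bases over at least 24 bp. Without a run, 4623 strong BURs were occupied at 50.4%, and with a run, 5509 were occupied at 5.30%. At a fold enrichment of 20 or more, 483 BURs without a run were occupied at 55.5%. At the weak end, under a fold enrichment of 4, 3.12% of 48267 BURs were occupied.

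AT content was lower in occupied than in free BURs, although both are rich in A and T. The median was 69.4% for occupied and 70.9% for free BURs, a difference of -1.33 points ± 0.236 (SD, n = 2 lists), and it was negative on 20 of 20 chromosomes. In the 300 bp around the in vitro summit the medians were 71.3 and 71.7%, and in the 1 kb on each side of the BUR both were 61.4%, so the classes hardly differed in the base composition of their surroundings. Over all BURs the occupied share rose from 10.1% in the lowest decile of AT content to 17.4% in the third decile and fell to 5.85% in the top decile. Without BURs that hold a tandem run it fell steadily, from 31.6% to 5.79%. The same order held at matched strength: among BURs without a run in the top quintile of fold enrichment, the share was 45.1% in the lowest and 20.0% in the highest quintile of AT content, and in the lowest quintile of fold enrichment it was 8.74% and 0.703%.

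Stretches without G or without C, the feature from which the ATC context takes its name, covered a smaller share of occupied BURs, and the longest of them was shorter. Runs of 25 bp or more without G or without C covered a median of 21.9% of the length of occupied BURs, which are the longer ones, and 25.8% of that of free BURs, a difference of -3.57 points ± 0.214 (SD, n = 2 lists), negative on 20 of 20 chromosomes. The longest such run had a median of 39 bp in occupied and 43 bp in free BURs. The occupied share fell from 16.8% in the lowest decile of this coverage to 4.94% in the highest. Without BURs that hold a tandem run, the corresponding shares were 17.9% and 6.08%.

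Tandem repeats were far more frequent in free than in occupied BURs. A run of 24 bp or more was present in 8.79% of occupied and 25.4% of free BURs, a difference of -17.1 points by replicate 1 and -15.1 points by replicate 2 (SD 1.42, n = 2 lists), negative on 20 of 20 chromosomes. Read the other way, 4.39% of the 52576 BURs with a run were occupied, against 13.3% of the 179492 without one. The units were named after their values had been seen, each unit standing for its rotations and its reverse complement.

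Runs of AGAT were the most frequent, in 19900 BURs or 8.58% of all BURs, and 1.81% of these were occupied (2.37% with a peak in replicate 1 and 2.05% in replicate 2). On single chromosomes the occupied share ranged from 1.03 to 2.59%. These BURs were strong in vitro, with a median fold enrichment of 10.8, above the median of occupied BURs. Runs of AAAT, in 17104 BURs (7.37% of all), were occupied at 1.37%, with a median in vitro fold enrichment of 7.96. Runs of AAT, in 7486 BURs (3.23% of all), were occupied at 2.52% (3.01 and 4.53% in replicates 1 and 2). Dinucleotide runs lay higher: AC runs, in 4078 BURs, were occupied at 11.1% and AG runs, in 1479 BURs, at 9.13%, close to the 11.3% of all BURs, whereas AT runs, in 2144 BURs, were occupied at 4.52%.

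AATT runs were the exception. Such a run was present in 2.08% of occupied, 0.0756% of free and 0.371% of all BURs. Of the 862 BURs that held one, 545 (63.2%) were occupied and 147 (17.1%) were free, with occupied shares on single chromosomes from 41.7 to 73.3%. Replicate 1 had a peak in 64.0% and replicate 2 in 82.1% of them, a wider gap between the lists than for the other units given here. Their median in vitro fold enrichment was 8.58, close to that of AAAT runs, and their median AT content was 62.7%. AATT and AAAT runs both consist of A and T alone and differ in the number of each on a strand and in their order. An AATT run repeats ATTA and TAAT once per unit each, which the sequences above show, whereas AAAT and AGAT runs hold neither. AAT runs hold the word once per unit as well and were mostly free, so runs that hold it were occupied at very different shares.

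The summits placed the in vivo signal of these BURs. In vitro, the summit of the BUR lay within 50 bp of the run in 89.8% of BURs with an AGAT run, 89.5% with an AAAT run, 89.7% with an AAT run and 88.4% with an AATT run. These shares are over all BURs with the run, most of which were free for AGAT, AAAT and AAT. Among occupied BURs alone, the in vitro shares were 56.8% with an AGAT, 40.0% with an AAAT, 59.8% with an AAT and 88.4% with an AATT run. In thymocytes, the summit of the peak lay within 50 bp of the run in 96.3 and 96.7% (replicates 1 and 2) of the 545 occupied BURs with an AATT run, at a median distance of 0 bp. In the 361 occupied BURs with an AGAT run it did so in 4.16 and 4.99%, at median distances of 283 and 278 bp from the run. For the 235 occupied BURs with an AAAT run the shares were 5.11 and 6.38% and the distances 297 and 292 bp. The occupied BURs with an AGAT run were also long, with a median of 775 bp against 517 bp for free ones, and among BURs of 350 to 550 bp only 0.313% of those with an AGAT run were occupied. For the 189 occupied BURs with an AAT run the shares were 29.1 and 31.7% and the distances 162 and 153 bp. In most occupied BURs with AGAT, AAAT and AAT runs, then, the summit of the thymocyte peak lay over 50 bp from the repeat, though the peak as a whole may still have covered it.

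The authors kept reads that match the genome once, and reads from long simple repeats or recent copies are harder to place. The BUR map, an in vitro list, had its summits within 50 bp of most of these runs. How its reads there compare with those of the thymocyte libraries was not tested. The share by length of run differed between units. It was 1.80% for AGAT runs of 24 to 31 bp and 1.79% for those of 48 to 95 bp, whereas for AAT runs it was 5.16% and 1.76% and for AAAT runs 1.89% and 1.15% at these lengths. For AATT runs it was 66.2% at 24 to 31 bp and 56.0% at 32 to 47 bp, a fall that replicate 2 alone, with 81.9 and 82.8%, did not show. The brain lists showed the same order of units, with a peak in both lists at 5.73% of BURs with an AGAT run, 3.74% with an AAAT run, 6.89% with an AAT run and 65.4% with an AATT run. The part of read placement in these differences was not tested.

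Short words around the in vitro summit were compared in the 179492 BURs without a tandem run, of which 13.3% were occupied. Of 1489 words of 6 bases held by at least 2% of them, counted on both strands, the first 6 ranks by occupied share were taken by words with ATTA or TAAT inside. BURs that held ATTAGC were occupied at 21.5%, those that held CTAATA at 21.0% and those that held ACTAAT at 20.2%. The next words in rank were ATTAGG, with an occupied share of 19.8%, and the palindrome ATTAAT, with an occupied share of 18.5%. Ranks 7 to 10 went to words without ATTA or TAAT, at 18.0 to 18.2%, the first of them GCAGGC, which was present in 4.73% of all BURs. CTAATA was present in 67.8% of occupied and 37.9% of free BURs without a run, and in 37.7% of all BURs. The lowest ranks were alternations of T and A, where BURs that held TATATA were occupied at 10.1% and those that held ATATAT at 10.7%. Among 7932 words of 8 bases held by at least 1% of the BURs, GCTAATAA led at 32.7%, followed by ATTATTAG at 32.4% and ACTAATAA at 31.2%, and TATATATA came last at 5.94%. In that order, these were present in 3.15, 6.50, 6.36 and 9.18% of all BURs. These words overlap each other, and the ranks are a description of 1 map. They were chosen after their values had been seen.

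CTAATA and TATATA were followed within quintiles of in vitro fold enrichment and, separately, within quintiles of AT content. Here AT content is that of the 300 bp around the summit, not of the whole BUR. BURs with CTAATA were occupied at 5.46% and those without it at 1.52% in the lowest quintile of in vitro fold enrichment, and at 44.3% and 21.7% in the highest. In the quintile with the lowest AT content the shares with and without CTAATA were 30.0% and 14.5%, and in that with the highest they were 19.4% and 6.08%. For TATATA the direction was the opposite, with 1.87% against 3.60% in the lowest and 25.7% against 37.9% in the highest quintile of fold enrichment. The word TAATTA separated BURs less than CTAATA did. BURs with and without it were occupied at 3.66% and 2.53% in the lowest quintile of fold enrichment, and at 37.1% and 27.7% in the highest. For ATTAAT these shares were 4.19% and 2.07% in the lowest quintile, and 38.6% and 22.2% in the highest. For AAAAAA the direction was that of TATATA, with 2.39% against 3.66% in the lowest and 30.2% against 35.9% in the highest quintile. Most other words were not compared within quintiles.

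The number of copies was graded with occupancy. ATTA, counted on both strands with overlaps in the 300 bp around the summit, was present in 98.2% of all BURs and occurred a median of 12 times in occupied and 9 times in free BURs. The difference was 3 in each list and 3 to 4 on each of the 20 chromosomes. BURs without a tandem run were occupied at 0.865% with 2 to 3 copies, 3.67% with 6 to 7, 14.6% with 10 to 12 and 30.9% with 13 or more. The 776 BURs with 0 to 1 copy broke the order, at 4.25%. These BURs were also split by quintiles of AT content in the same 300 bp. Within each of the 5 quintiles, the third with the most copies was occupied more often than the third with the fewest. The shares were 38.3% against 7.23% in the lowest quintile and 23.9% against 1.81% in the highest. Copies of TATA, present in 91.4% of all BURs, ran the opposite way, from 20.2% with 0 to 1 copy to 2.16% with 13 or more, and copies of AAAA (TTTT on the other strand), present in 98.5%, from 24.6% to 9.04%.

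**Figure D2:**
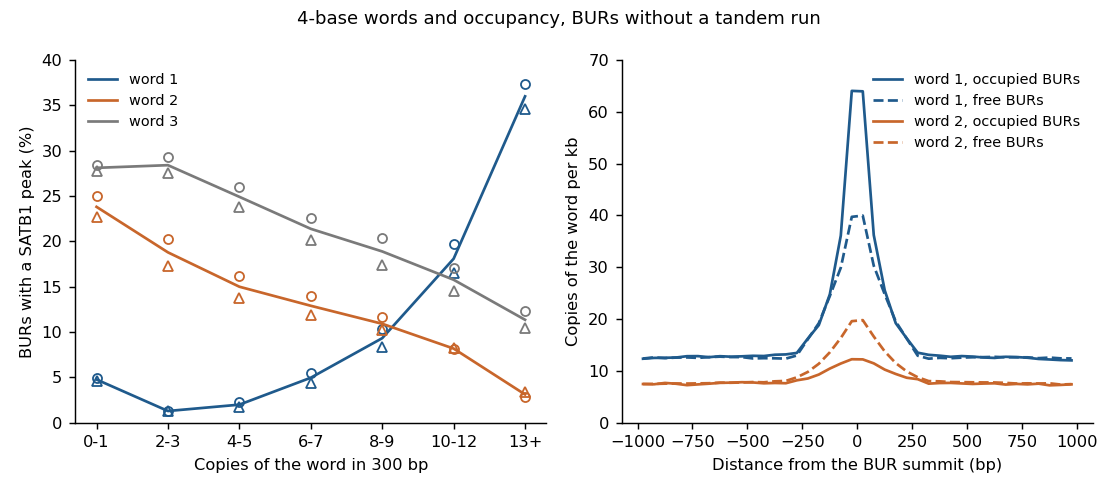
Left, share of BURs with a thymocyte SATB1 peak (%) by the number of copies of a 4-base word in the 300 bp around the BUR summit; right, copies per kb against the distance from the summit (bp) in occupied (solid) and free (dashed) BURs, all without a tandem run. Word 1 is ATTA or TAAT, word 2 TATA and word 3 AAAA or TTTT; circles are replicate 1, triangles replicate 2 and lines their mean, and for 13 or more copies of word 1 the replicates gave 37.3 and 34.6%.

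Word density set the classes apart only near the summit. Within 100 bp of it, occupied BURs held 50.1 and free BURs 35.0 copies of ATTA per kb, and 500 to 1000 bp away both held 12.6. TATA stood at 11.8 per kb in occupied and 18.1 per kb in free BURs within 100 bp, and at 7.50 and 7.62 per kb farther out. AAAA stood at 33.1 and 41.6 per kb near the summit and at 27.7 and 28.0 per kb farther out. These densities are over 23953 occupied and 145098 free BURs without a run.

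Where a BUR was occupied, the thymocyte peak was centred on it. The summits of peak and BUR lay a median of 31 bp apart in both replicates, and within 50 bp of each other in 68.4 and 68.3% of the 26260 occupied BURs. The peaks covered a median of 78.7 and 76.2% of the BUR. Few BURs sat at the edge of the rule: 43 occupied BURs shared 50 bp or less with the peak in either list, and 134 free BURs had a peak within 50 bp of their end. Those 43 had a median in vitro fold enrichment of 6.36 and those 134 of 4.95.

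Among occupied BURs, the level of thymocyte enrichment followed the in vitro features loosely. Median thymocyte fold enrichment was 10.1 in replicate 1 and 9.19 in replicate 2. Its Spearman correlation across the 26260 occupied BURs was 0.321 and 0.317 (replicates 1 and 2) with in vitro fold enrichment, 0.241 and 0.263 with the count of ATTA, -0.154 and -0.206 with AT content, and 0.132 and 0.121 with length. Between the replicates it was 0.842. These correlations run across BURs of the same libraries, which are not independent replicates.

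Neighbouring BURs of opposite class share their surroundings and repeated these differences. There were 19591 adjacent pairs of 1 occupied and 1 free BUR less than 5 kb apart. This count leaves out exonic BURs, chromosome 18 and BURs with a peak in every in vivo list. The occupied member had the higher in vitro fold enrichment in 74.1% of pairs, the greater length in 66.7%, the higher count of ATTA in 71.4% and the higher AT content in 36.7%. A tandem run was present in 7.72% of the occupied and 21.1% of the free members. Pairs were also defined by each list alone, without these exclusions. The higher count of ATTA was then on the member with the peak in 69.1 and 70.5% of pairs.

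Genomic place differed little between the classes. Of occupied BURs 35.3% and of free BURs 34.0% overlapped a gene, a difference of 0.937 points by replicate 1 and 1.47 points by replicate 2 (SD 0.376, n = 2 lists), positive on 16 of 20 chromosomes. Exons were touched by 3.98 and 3.31%, while introns without an exon held 31.4 and 30.7%. Within 2 kb of the start of a protein-coding gene lay 1.77% of occupied and 1.79% of free BURs, and over 500 kb from any start lay 21.3 and 19.6%.

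The median distance to the nearest protein-coding gene start was 147 kb for occupied and 132 kb for free BURs, a difference of 16.6 kb ± 4.73 (SD, n = 2 lists), positive on 18 of 20 chromosomes. This difference rested on the BURs with tandem runs, which lie closer to genes: without them it was -3.53 kb, and across deciles of distance the occupied share was 13.5% in the nearest and 13.4% in the farthest.

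Spacing was much the same in both classes. A median of 26 other BURs lay within 100 kb of an occupied and 25 of a free BUR, a difference of 1.50 ± 0.707 (SD, n = 2 lists), and without BURs that hold a tandem run the difference was -1. The gap to the nearest BUR had medians of 2642 and 2584 bp, higher in occupied BURs on 13 and lower on 7 of 20 chromosomes. Isolated BURs without a run were occupied somewhat more often, at 15.6% in the decile of the widest gaps against 12.1% in that of the narrowest. In a logistic description of all BURs with length, AT content, in vitro fold enrichment, distance to a gene start and BURs within 100 kb together, each in SD units, the coefficients were 0.637 ± 0.0441 for fold enrichment, 0.301 ± 0.00361 for BURs within 100 kb, 0.158 ± 0.000577 for length, -0.127 ± 0.0465 for AT content and 0.0282 ± 0.00105 for distance (SD, n = 2 lists). The coefficient of BURs within 100 kb was above 0 on 20 of 20 chromosomes and that of distance on 11. With the presence of a tandem run and the count of ATTA added after the values had been seen, the coefficient of AT content was -0.839 ± 0.0759, that of length 0.269 ± 0.00474 and that of distance 0.0482 ± 0.000226, above 0 on 16 chromosomes. In that description the count of ATTA had 0.847 ± 0.0657, the run -0.898 ± 0.0319, fold enrichment 0.576 ± 0.0386 and BURs within 100 kb 0.305 ± 0.00549 (SD, n = 2 lists).

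**Figure D3:**
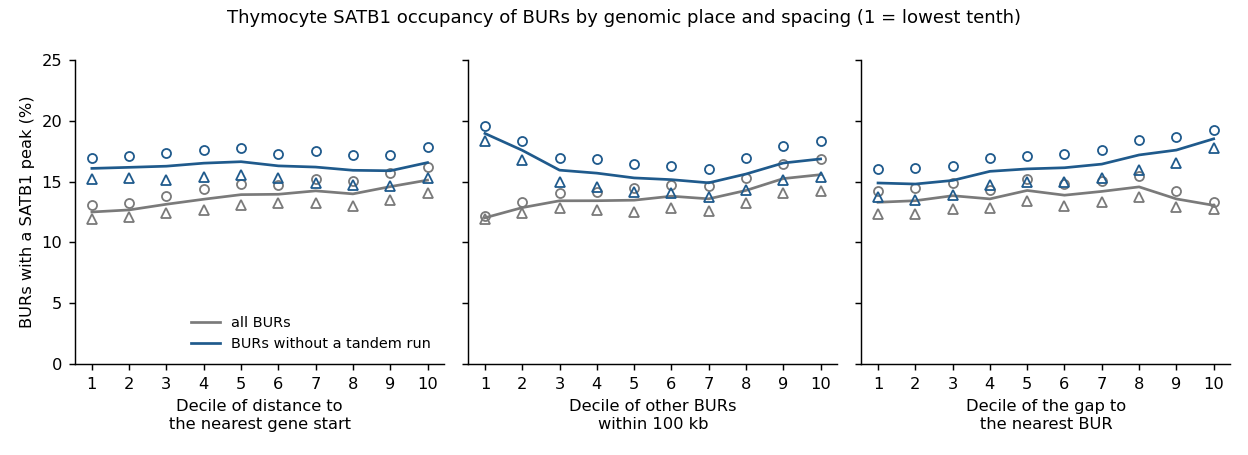
Share of BURs with a thymocyte SATB1 peak (%) by decile of distance to the nearest protein-coding gene start (left), of other BURs within 100 kb (middle) and of the gap to the nearest BUR (right), for all BURs (grey) and BURs without a tandem run (blue); circles are replicate 1, triangles replicate 2 and lines their mean. The blue line is flat over distance, at 17.0 and 15.2% in the nearest and 17.8 and 15.3% in the farthest decile.

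At gaps of 1 to 5 kb, occupied BURs had an occupied nearest neighbour less often than free BURs did, with a smaller difference at closer range. With the nearest BUR under 1 kb away, it was occupied for 9.71% of occupied and 11.0% of free BURs. When the nearest BUR lay 1 to 2 kb away, it was occupied for 8.10% of occupied and 11.8% of free BURs, and at 2 to 5 kb for 8.72 and 11.9%. At 5 to 10 kb the shares were 11.9 and 11.5%, and at 50 kb or more 13.7 and 9.74%, the last over 117 occupied and 1037 free BURs. Taken singly, replicates 1 and 2 gave differences of -0.457 and -1.08 points under 1 kb, of -3.58 and -3.72 points at 1 to 2 kb and of 0.362 and 0.913 points at 5 to 10 kb.

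Every chromosome held both classes in like proportion. The occupied share ranged from 9.43% on chromosome 7 to 12.0% on chromosomes 14 and 16, and without BURs that hold a tandem run from 11.6% on chromosome 7 to 14.5% on chromosome 9. In bins of 1 Mb, the numbers of occupied and free BURs went together, with a Spearman correlation of 0.840 across 2581 bins. In the 2524 bins with 20 or more BURs, the occupied share had a median of 11.1%, with 5.56% at the 10th and 16.1% at the 90th percentile.

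The bins with the most occupied BURs held none of the annotated protein-coding genes. They were chr15:17000001-18000000 with 45 of 243 BURs occupied, chr17:61000001-62000000 with 45 of 233 and chr14:89000001-90000000 with 43 of 248. The lowest shares among bins with 100 or more BURs lay in gene clusters. The bin chr7:9000001-10000000, which holds the vomeronasal receptor genes Vmn2r38 to Vmn2r45, had 0 of 132 BURs occupied, with 0 peaks in replicate 1 and 1 in replicate 2. The bin chr5:11000001-12000000, with Gm8871, Gm8897 and other predicted genes of a family, had 1 of 172, and chr7:12000001-13000000, with Vmn1r72 to Vmn1r82, had 1 of 117. Brain lists were also sparse in these 3 bins, with 2, 6 and 17 BURs carrying a peak in both. These were 1.52, 3.49 and 14.5% of their BURs, against 31.4% of all BURs. A larger part of their BURs contained words of 24 bases that 10 or more BURs hold, namely 78.8, 70.3 and 37.6%, against 21.8 to 26.6% in the bins with the most occupied BURs. Over the whole map, 147158 of 232068 BURs held no such word, so the last of the low bins lay close to the map as a whole. The part of such near-identical copies in the low shares was not tested.

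Single genes spread around the share of all BURs. Of 22208 protein-coding genes, 10243 had a BUR in the body, 3639 had an occupied one, and 6604 had BURs of which none was occupied. In the 738 genes with 20 or more BURs the occupied share had a median of 12.0%, with 5% at the 10th and 18.8% at the 90th percentile. The highest shares were in Zfp536, which encodes a zinc finger protein, with 9 of 26 BURs, Ntm, which encodes the neuronal adhesion protein neurotrimin, with 19 of 56, and Nbas with 9 of 28. Glra2, a glycine receptor gene, had 7 of 23, Wrn, the gene of the Werner helicase, 7 of 24, and Ssbp2, a gene for a binding protein of single-stranded DNA, 9 of 32. Frmpd4 had 11 of 40, Nfib, which encodes a transcription factor of the nuclear factor I family, 9 of 34, Fam110b 9 of 35 and the teneurin gene Odz3 11 of 43. Taken singly, replicates 1 and 2 had peaks at 21 and 22 BURs of Ntm and at 9 and 9 of Zfp536.

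At the other end, 24 of the 738 genes had no occupied BUR. Gm8897 had 41 BURs, Gm16430 28 and Gm8871 25, all without a peak in either list. Nox4, an NADPH oxidase gene, had 33 BURs, of which 1 carried a peak in replicate 2. Dst, which encodes the linker protein dystonin, had 26 BURs with 0 peaks in replicate 1 and 3 in replicate 2, and Pde3a, a phosphodiesterase gene, had 25 with 2 and 0. The other 4 of the 10 lowest were 4930555F03Rik, Fam135b, Gabrg1 and Vwc2l, with 24 BURs each. Gabrg1, which encodes a subunit of the GABA-A receptor, had no BUR with a tandem run.

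By count, the most occupied BURs per gene fell in very long genes, many of them of neurons. Ptprd, a receptor tyrosine phosphatase gene of 2271 kb, had 50 of 422 BURs occupied, Lrp1b, a lipoprotein receptor-related gene, 48 of 447, Cntnap2, a neurexin-family gene, 45 of 378 and Csmd3 44 of 302. Fam190a had 40 of 273, Sgcz, a sarcoglycan gene, 38 of 265, the netrin receptor gene Dcc 35 of 214, the dystrophin gene Dmd 34 of 301 and Lrrc4c 34 of 275. Their occupied shares lay between 10.7 and 16.4%.

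Genes that define thymocytes were no richer in occupied BURs than other genes. Of 42 such genes 41 matched the annotation, and their bodies with 50 kb on each side held 384 BURs, of which 41 (10.7%) were occupied, against 11.1% for all 22208 protein-coding genes. By replicate the shares with a peak were 15.4 and 12.8%, against 14.2 and 12.8% for all protein-coding genes. At least 1 occupied BUR lay near 22 of the 40 genes that had a BUR.

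Satb1 itself had the most, with 6 of 30 BURs occupied (6 and 7 with a peak in replicates 1 and 2), 5 of them in the body of the gene at chr17:51875512-51972615. Tcf12, the gene of the E protein HEB, had 5 of 32 BURs occupied, with 7 and 5 peaks in replicates 1 and 2. Tox, which encodes a nuclear factor of CD4 lineage development, had 5 of 45, with 10 and 5. Themis, a gene of positive selection, had 5 of 46, with 7 and 5. The chemokine receptor gene Ccr9 had 3 of 12, Runx3, which encodes a transcription factor of the CD8 lineage, 2 of 4, the checkpoint receptor gene Ctla4 2 of 10 and Runx1, which encodes a factor of early T cell development, 2 of 10. The recombinase genes Rag1 and Rag2, which lie side by side and share BURs, had 1 of 11 and 1 of 13, and the CD3 chain genes Cd3d, Cd3e and Cd3g, which share their locus as well, each had 1 of 5.

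Among genes without an occupied BUR, the coreceptor genes Cd4, Cd8a and Cd8b1 had 5, 5 and 6 BURs, all free. The kinase gene Lck had 10 free BURs, the costimulatory receptor gene Cd28 10, and the transcription factor genes Tcf7, Lef1 and Ets1 had 7, 6 and 7. Foxp3, the regulator of regulatory T cells, had 2 and Cd5 2. The paper reports a SATB1-bound BUR at the Foxp3 locus in thymocytes by urea ChIP-seq. The free BURs given here hold for these peak lists, this map and this overlap rule only. The cytokine receptor gene Il2ra had 12 BURs, of which 10 were free and 2 had a peak in 1 list.

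**Figure D4:**
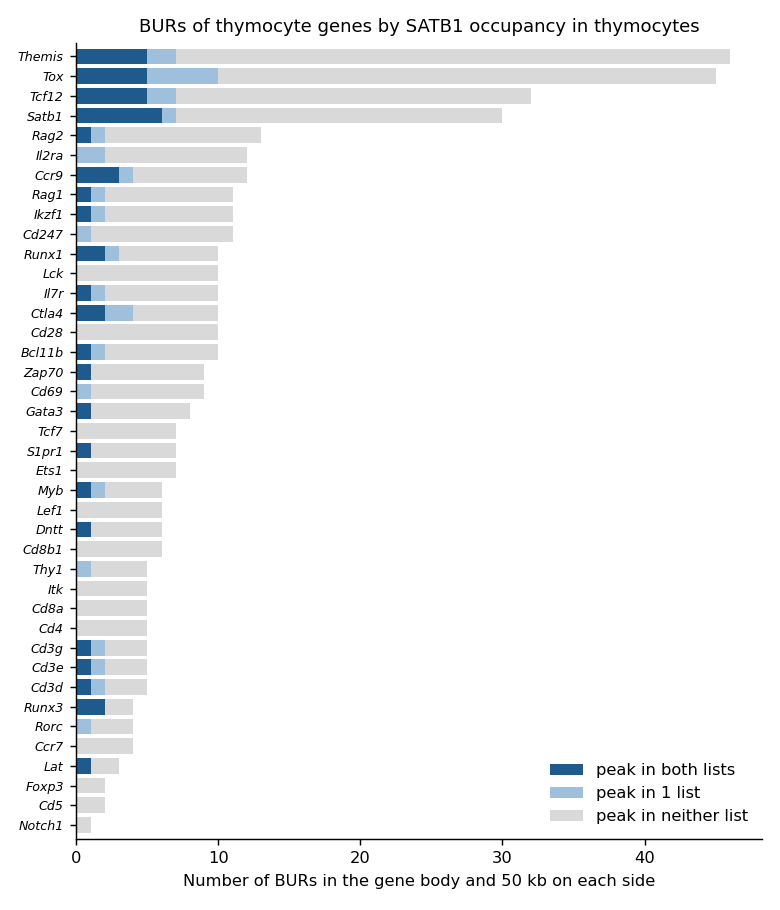
Number of BURs in the body of each thymocyte gene and 50 kb on each side, split into those with a SATB1 peak in both thymocyte lists, in 1 list and in neither, for the 40 genes with a BUR. Satb1 leads with 6 occupied of 30, while Cd4, Cd8a and Cd8b1 have none of 5, 5 and 6.

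Other gene groups, with the same 50 kb on each side, are given by their counts and are not particular to thymocytes. In the same window 11.1% of the BURs of all protein-coding genes were occupied. Brain transmitter receptor genes had 225 of 1806 BURs occupied (12.5%), among them Grik2 with 23 of 180 and Grm8 with 17 of 146. Long neuronal adhesion genes had 500 of 4208 (11.9%), and each of the 20 held at least 1 occupied BUR. Olfactory receptor genes had 550 of 4687 (11.7%). The highest count around a single gene of this group was 10 of 24 BURs, at Olfr1202 on chromosome 2. Vomeronasal receptor genes had the lowest share, 175 of 2546 (6.87%), and without BURs that hold a tandem run 7.25% against 13.6% for all protein-coding genes. Keratin and keratin-associated genes had 27 of 238 (11.3%). In their bodies 0 of 14 BURs were occupied, against 11.8% in the bodies of all protein-coding genes. Around ribosomal protein genes 33 of 322 BURs (10.2%) were occupied, a group in which 55.9% of BURs held a tandem run, against 25.7% for all protein-coding genes. Without BURs that hold a run the share around ribosomal protein genes was 17.6%, above the 13.6% of all protein-coding genes.

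Most BURs occupied in thymocytes also carried SATB1 peaks in brain. Urea lists of brain and skin from wild-type C57BL/6 mice, made with the same antibody, have 2 replicates each, and the brain lists, which share an experiment number and differ in their titles by the number of cycles, are longer, with 117870 and 109063 peaks against 10982 and 10611 for skin. A peak in both brain lists was present at 97.6% of occupied and 19.3% of free BURs, and a peak in both skin lists at 25.8 and 0.167%. Only 155 occupied BURs (0.590%) had a peak in neither brain list. Of the 7236 BURs with a peak in both skin lists, 93.6% were occupied in thymocytes.

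Standard ChIP-seq, in which crosslinked chromatin is not purified through urea, met few BURs of either class. SATB1 peaks of its 2 thymocyte lists overlapped 0.845 and 0.731% of occupied and 0.628 and 0.503% of free BURs. Replicate 1 of these lists has an older age in its title than the P13 of its age label, and it used another SATB1 antibody than the urea lists. The urea CTCF list of thymocytes, CTCF being the DNA-binding protein that anchors many chromatin loops, overlapped 0.526% of occupied and 0.179% of free BURs. Its title and its age label differ in the same way.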

How the data were processed

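Peak lists were analysed as deposited. The authors aligned reads to mm9 with Bowtie2 2.3.1, kept unique matches and called peaks with MACS2 2.2.7, per library and per the submitters' processing notes. The deposited fold enrichment is a ratio over local background, and the deposited significance is the −log10 of the q-value. Whether an input was used in peak calling is not given in the sources used here. The BUR map and the 10 in vivo lists were read. Other samples of the series and the columns of height and p were not used here.

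Overlaps used a minimum of 1 bp. Sequence was read from NCBIM37, and genes came from GENCODE M1. G-free and C-free runs counted from 25 bp, tandem runs from 24 bp, and words in the 300 bp around the BUR summit. The logistic description was checked on simulated data. Python 3.11.15, numpy 2.4.6, pandas 2.3.3 and pysam 0.24.0 were used. The replicate numbers are those of the labels.

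The members and gene lists were chosen with earlier results of these data known, and the tandem units, the words and the alternatives without repeats after the values had been seen. BURs named are the 3 occupied with the highest thymocyte and the 3 free with the highest in vitro fold enrichment (outside exons, off chromosome 18 and not in every in vivo list) and the 2 best matched neighbouring pairs. The same exclusions held for both members of the pairs and for the BURs with the longest runs. Genes named are, among those with 20 or more BURs, the 10 highest and 10 lowest by occupied share, the 10 with the most occupied BURs (1 of them is not reported here) and up to 8 per gene list. Genes without an occupied BUR and those sharing a locus were added from the same list. The alternatives raised the −log10 q to 5, asked for 50% coverage or for the peak summit inside the BUR, kept BURs of 350 to 550 bp, left out BURs found in every list, exonic BURs, BURs with tandem runs or with shared words of 24 bases, and left out each replicate. No read depth is given by the lists, so no counting interval could be computed.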

Additional observations from a re-analysis of the deposited data

How the results depend on the processing

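Of 121 alternatives computed for 13 results, 71 stayed within 1 SD over the 2 lists. Another 46 moved by more than that, up or down, but kept their sign or fell to 0, and 4 changed sign. Plain occupied shares cannot change sign. Leaving out a replicate gives the contrasts from which the SD is taken, so these counts do not measure how firm a direction is. The sign changes were in place and spacing: without BURs that hold a tandem run, the difference in distance to a gene start was -3.53 kb and that in BURs within 100 kb was -1, and without BURs that share words of 24 bases with 10 or more BURs they were -6.37 kb and -2. In the same 2 settings, in that order, the occupied share was 13.3% in both, length differed by 94 and 97 bp, in vitro fold enrichment by 3.61 in both and AT content by -2.29 and -2.23 points. With 50% of the BUR covered, the occupied share was 9.45%, and the differences were 45 bp in length, -2.05 points in AT content, 4.10 kb in distance and 0 BURs within 100 kb. Among BURs of 350 to 550 bp they were 22 bp, 2.18 in fold enrichment, -1.84 points, 9.38 kb and 0. In the 300 bp around the summit AT content differed by -0.333 points. With each replicate left out in turn, the occupied share was 12.9 to 14.6%, and the differences were 61 to 66 bp in length, 2.59 to 2.96 in fold enrichment, -1.50 to -1.17 points in AT content, 13.3 to 19.9 kb in distance and 1 to 2 BURs within 100 kb. The difference in the count of ATTA was 3 in each of its 10 alternatives. The occupied share of BURs with an AATT run was 57.9 to 82.1% over 8 alternatives, against 0.313 to 2.37% for AGAT runs. The lists give no read counts, so a free BUR may have signal below the peak caller's threshold, and the single BUR map leaves the error of the in vitro values unknown.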

Other observations

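BURs with a peak in 1 list only lay between the classes in strength. The 7646 BURs with a peak in replicate 1 only had a median in vitro fold enrichment of 6.84, a length of 463 bp, an AT content of 70.6% and 11 copies of ATTA, and the 3745 with a peak in replicate 2 only had 7.97, 485 bp, 69.3% and 12 copies, against 8.62, 497 bp, 69.4% and 12 for occupied and 5.53, 427 bp, 70.9% and 9 for free BURs.

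Free BURs differed when split by their peaks in brain. The 37436 free BURs (19.3% of free BURs) with a peak in both brain lists had a median of 11 copies of ATTA, a tandem run in 5.87% and a median distance to a gene start of 183 kb. The 138315 with a peak in neither brain list (71.1%) had 8 copies, a run in 32.9% and a distance of 116 kb. In vitro fold enrichment was 6.40 in the first and 5.30 in the second of these sets, below the 8.62 of occupied BURs. The remaining free BURs had a peak in 1 brain list.

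Near-identical copies moved with low shares outside tandem runs only where they made up most of the BUR. Of 858 BURs without a run in which over 75% of the words of 24 bases were held by 10 or more BURs, 1.86% were occupied, against 13.3% of the 147104 that held no such word. The share was 14.2% of 27990 BURs with such words in up to 25% of their length, 12.0% of 2276 with 25 to 50% and 4.59% of 1264 with 50 to 75%. In the 858 BURs with the most such words the median in vitro fold enrichment was 6.98, against 5.17 in those with none. The part of read placement in this difference was not tested.

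BURs with a peak in every in vivo list of the series numbered 57, all of them occupied by construction. They make up 0.217% of occupied BURs.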
